A study of Canis lupus familiaris with 10 samples.

Results

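The Fc receptor family on the nCounter Canine IO Panel consists of 7 genes among the 800 panel genes. They are the rows whose symbol begins with FCGR, FCER, FCAR or FCRL, together with LOC100856270, named FCGR2B in RefSeq (assembly UU_Cfam_GSD_1.0). All 7 genes had a mean of at least 20 normalized counts and were therefore tested, as were 761 of the 800 panel genes. Expression was measured in canine cutaneous histiocytoma (CCH), a benign tumour of Langerhans cell origin in the skin of dogs, and compared between 5 tumours of group 1 in the scheme of Cockerell and Slauson (early CCH) and 5 tumours of group 3, labelled as lymphocyte enriched (late CCH). Each tumour was archival formalin-fixed, paraffin-embedded (FFPE) tissue of a pet dog and none was pooled. The early tumours came from 3 male dogs, 1 female dog and 1 dog of unstated sex, with ages from 0.5 to 5 years in the 4 dogs whose age was given. The late tumours came from 4 male dogs and 1 female dog aged 1.5 to 9 years. The dogs of early 1, early 4 and late 1 were labelled as neutered males. The labels describe no treatment in either group. RNA came from full sections after removal of adjacent tissue, so that each value sums over tumour cells and every other cell left in the section. Means are followed by their SD over the 5 tumours of a stage unless another n is given.

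Fc receptors bind the constant part of antibodies and link the antibody response to cells that carry them. The high affinity IgE receptor is built from an IgE-binding alpha chain (FCER1A), a beta chain (MS4A2) and the gamma chain (FCER1G), and the gamma chain also carries the activating signal of FCGR1A, the high affinity IgG receptor, and of FCAR, the IgA receptor. FCGR2B is the inhibitory IgG receptor, FCER2 (CD23) is the low affinity IgE receptor, a lectin of B cells and some myeloid cells, and FCRL2 is an Fc receptor-like protein of B cells. Mast cells, dendritic cells and Langerhans cells are the cells of skin best known for the high affinity IgE receptor.

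Samples differed in ways that accompany stage. Recovered barcode counts, the whole numbers behind the normalized values, summed to between 484696 and 823763 in early and between 945399 and 1253083 in late CCH. Background, taken as the mean plus 2 SD of the 8 negative probes of a sample, was 21.8 to 38.2 normalized counts in early and 19.2 to 26.9 in late CCH. DV200, the percentage of RNA fragments over a set length, was 64.5 to 71.2 in early and 71.2 to 75.8 in late CCH. The ratio of the 2 strongest spiked-in controls was 2.09 to 2.17 in early and 2.72 to 2.84 in late CCH. According to the sample sheet of the study, 1 cartridge held all early and another held all late samples, and no RNA extraction batch held both stages, so that stage cannot be told apart from cartridge or extraction. Of the 11 tested genes of a Langerhans and dendritic cell list, CD207 was above background in 1 of 5 early and 1 of 5 late samples. CD1C was above it in 0 of 5 early and 5 of 5 late samples. CD1A6 and XCR1 were above it in 4 of 5 early and 5 of 5 late samples. The other genes of that list, among them FLT3, EPCAM and CDH1, were above it in every sample. In this bulk tissue, fewer cells of a type and less RNA per cell cannot be told apart.

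Of the 7 Fc receptor genes, 1 was higher in early CCH (FCER1A) and 1 was higher in late CCH (LOC100856270), both past the Benjamini-Hochberg (BH) threshold of 0.05 in limma. This share of 28.6% stands beside 35.7% of all tested panel genes that passed the same threshold, 8.41% as higher in early and 27.3% as higher in late CCH. FCER1A also passed the stricter Benjamini-Yekutieli (BY) threshold with at least a 2-fold change, which 11.2% of tested genes did (1.97% toward early and 9.2% toward late CCH). The other 5 genes, FCER1G, FCER2, FCGR1A, FCAR and FCRL2, did not pass either threshold. The median log2 fold change, early minus late, was 0.26 over the 7 genes and -0.18 over all tested genes.

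**Figure D1:**
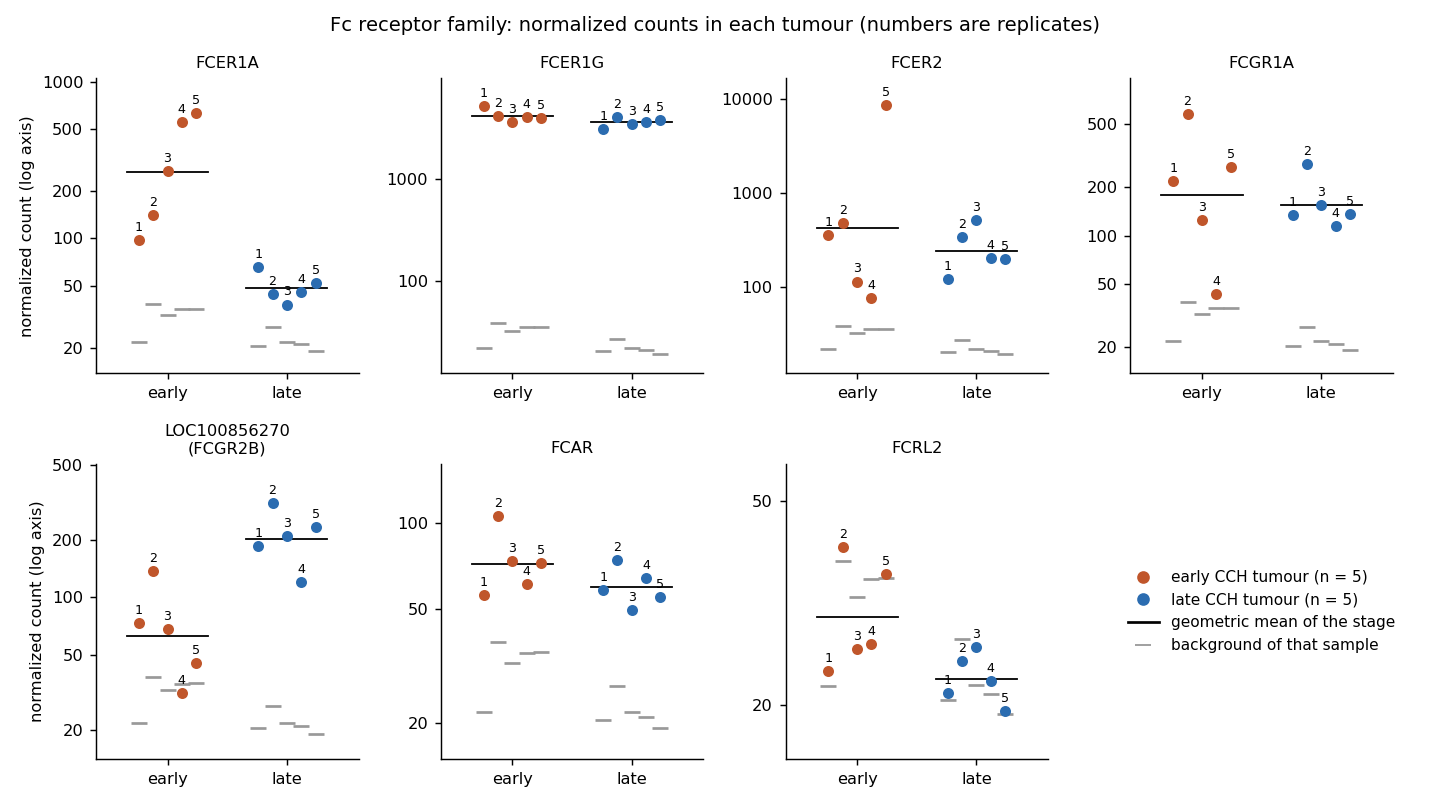
Normalized counts on a log axis for each Fc receptor gene in each tumour, with early CCH on the left and late CCH on the right of every panel (n = 5 each), replicate numbers above the points, the geometric mean of a stage as a black line and the background of each sample as a grey dash. FCER1A is the only gene without overlap of the stages, early 5 stands far above all other samples for FCER2, and FCRL2 lies at background.

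FCER1A encodes the chain that binds IgE with high affinity. Its normalized counts were 98.4, 141, 272, 557 and 635 in early 1 to early 5 and 65.7, 44.2, 37.8, 45.5 and 51.9 in late 1 to late 5. All early samples lay above all late samples, a separation seen in 24.6% of tested genes in either direction and in 5.39% toward early CCH. The early tumours themselves spread over a 6.45-fold range, with early 4 and early 5 high and early 1 low, whereas the late tumours spread over a 1.74-fold range. Mean levels were 340 ± 243 in early and 49.0 ± 10.6 in late CCH, and the log2 fold change was 2.44 (SE 0.50, 95% interval 1.34 to 3.55, limma BH adjusted p = 0.00489, BY adjusted p = 0.0353). Late values were 1.64 to 3.21 times the background of their sample, and with all values raised to a common background floor of 38.2 the log2 fold change remained at 2.44.

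The call of FCER1A passed BH in each of the 10 leave-one-out fits, with log2 fold changes from 2.13 to 2.80. Past BY it held only without early 1 (adjusted p = 0.0205) or without early 2 (0.0386) and was lost without any of the other 8 samples, where the highest BY adjusted p was 0.102 (without late 4). With DV200 as a covariate the log2 fold change was 1.80 (limma BH adjusted p = 0.163) and among male dogs alone it was 1.99 (limma BH adjusted p = 0.0557).

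FCER1G, the shared gamma chain, had 5291, 4174, 3661, 4140 and 3962 normalized counts in early 1 to early 5 and 3107, 4097, 3505, 3689 and 3810 in late 1 to late 5. The stages overlapped, with early 1 highest and late 1 lowest. Its mean was 4245 ± 619 in early and 3642 ± 368 in late CCH, a log2 fold change of 0.22 (SE 0.14, 95% interval -0.09 to 0.52) that did not pass the test (limma BH adjusted p = 0.244). The spread of FCER1G among early tumours was small for this panel, with an SD of 0.20 on the log2 scale, larger than that of 10.6% of tested genes. Its nearest genes were NCF4 (0.12), a subunit of the phagocyte oxidase, the integrin ITGB1 (0.12) and the lectin LGALS1 (0.12), by the mean absolute difference of mean-centred log2 values over the 10 samples, against a median of 0.49 over all tested genes. MS4A2, the beta chain, which the family rule does not include and which was singled out after its values were seen, had 159, 105, 82.6, 75.8 and 77.7 normalized counts in early 1 to early 5 and 29.1 to 73.0 in the late tumours. MS4A2 was higher in early CCH without overlap of the stages (log2 fold change 0.97, limma BH adjusted p = 0.0350), and within early CCH its highest value was in early 1, where FCER1A was lowest.

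The ratio of FCER1A to FCER1G within a tumour is not changed by a single scaling factor per sample, apart from the pseudocount of 1. The log2 ratio was -5.73, -4.88, -3.75, -2.89 and -2.64 in early 1 to early 5 and ranged from -6.50 to -5.54 in late CCH, where late 1 exceeded early 1. The mean difference was 2.23 (exact two-sided permutation p = 0.0159, BH adjusted over 3 ratios 0.0159, n = 5 per stage), against a smallest possible p of 0.00794. The alpha chain was thus higher relative to the gamma chain in early CCH by 4.68-fold.

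The levels of other mast cell genes were set beside FCER1A. KIT, the stem cell factor receptor that mast cells carry, had 101, 124, 821, 1216 and 77.7 normalized counts in early 1 to early 5 and 158 to 580 in late CCH (log2 fold change -0.10, limma BH adjusted p = 0.932). Early 4 was high and early 5 was lowest of all samples for KIT, although both were high for FCER1A. Of the 6 tested genes of the mast cell and basophil list, 3 were higher in early CCH past the BH threshold (MS4A2, CPA3 and HDC, the latter 2 a mast cell protease and the enzyme that makes histamine), 0 were higher in late CCH and 3 did not pass it, where 8.41% of all tested genes passed as higher in early CCH. The list median was 0.42 on the log2 scale. The summed normalized counts of the list were 322 to 1486 in early and 358 to 674 in late CCH, and early 5 had the lowest sum. HDC was above background in 2 of 5 early and 0 of 5 late samples. KIT and CMA1, a mast cell chymase, were the members with the highest levels, and CMA1 did not pass the test (log2 fold change -0.41, limma BH adjusted p = 0.611). The part of mast cells in the FCER1A difference was not tested.

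The genes of the panel nearest to FCER1A in their pattern, by the same measure, were IFNA7 (0.68), an alpha interferon gene, ADORA2A (0.68), an adenosine receptor, and FLT3 (0.70), the growth factor receptor of dendritic cells. The median of this measure over all tested genes was 1.39. All of these genes were higher in early CCH past the BH threshold, with log2 fold changes of 1.14, 1.38 and 2.49 (limma BH adjusted p = 0.0383, 0.00167 and 0.00141). Because likeness was measured over both stages, a direction shared with FCER1A was largely built into the choice. FLT3 did not share the order of the early tumours, since early 1 had 2867 normalized counts of FLT3, the highest value but that of early 3 (3117), and the lowest count of FCER1A in its stage. Of the 11 tested genes of the Langerhans and dendritic cell list, 1 was higher in early (FLT3), 4 were higher in late CCH and 6 did not pass the BH threshold, beside 8.41% and 27.3% of all tested genes in these directions. IRF8, a transcription factor of dendritic and B cells with the second highest level in that list, was among those higher in late CCH (log2 fold change -1.43, limma BH adjusted p = 0.0150). It had 361, 388, 628, 695 and 811 normalized counts in early 1 to early 5, the order of FCER1A. No other gene of the list had that exact order. CD1A6, CD1C, EPCAM, ITGAX and CD83 were lower in early 1 and early 2 than in early 3 to early 5. CD207, CDH1, XCR1, CCR7 and FLT3 were not. The part of dendritic or Langerhans cells in the FCER1A difference was not tested.

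FCER2, the low affinity IgE receptor CD23, was decided by a single tumour. It had 358, 475, 114, 75.8 and 8608 normalized counts in early 1 to early 5 and 120, 341, 513, 202 and 199 in late 1 to late 5. Early 5 was 18.1 times the next early sample and 16.8 times the highest of all other samples. The remaining early tumours had a mean of 256 ± 192 (SD, n = 4) and the late tumours one of 275 ± 155. Early 1 and early 2 lay within the late range, and early 3 and early 4 lay below the lowest late tumour. Early 5 rested on 4543 recovered counts of FCER2, against 46 to 338 in the other early tumours. The log2 fold change was 0.78 (SE 1.10, 95% interval -1.67 to 3.23, limma BH adjusted p = 0.613) and turned to -0.31 without early 5 (limma BH adjusted p = 0.730).

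FCER2 was the only one of the 761 tested genes in which 1 sample exceeded 10 times the next highest sample. In early 5, the gene with the next largest excess over all other samples was TNFSF11, a cytokine of the TNF family, at 2.13 times. B cells are a known source of FCER2. The summed normalized counts of the 9 B cell genes were 2346 in early 5, the lowest of the early range of 2346 to 3734, against 2094 to 10926 in late CCH. MS4A1, a defining gene of B cells, had 22.7 normalized counts in early 5, below its background of 35.4, and was above background in 1 of 5 early samples. CD79A, a chain of the B cell receptor, had 49.3 normalized counts in early 5, its lowest value in any sample. In late CCH the tumour with the most B cell signal, late 3 at 10926, also had the highest late value of FCER2 (513). MS4A1, CD79A and TNFSF11 were named after their values were seen. Other genes of the list were above background in early 5, among them CR2 at 62.5, CD22 at 1199 and TNFRSF13C at 921 normalized counts. The part of B cells in the FCER2 value of early 5 was not tested. CD22 and TNFRSF13C, the B cell genes with the highest levels, did not differ past the threshold between the stages (log2 fold change 0.17 and 0.58, limma BH adjusted p = 0.730 and 0.322).

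The panel genes nearest to FCER2 in pattern were LY86 (0.87), PTGDR2 (0.87) and FOS (0.95), against a median of 1.35 over all tested genes. None of these passed the BH threshold.

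FCGR1A, the high affinity IgG receptor of monocytes and macrophages, varied widely among the early tumours. It had 220, 578, 125, 42.8 and 267 normalized counts in early 1 to early 5 and 135, 279, 154, 115 and 136 in late 1 to late 5. Early 2 was above every late sample and early 4 was below every late sample, a 13.5-fold range in early against a 2.42-fold range in late CCH. The means were 247 ± 205 and 164 ± 65.6, and the log2 fold change of 0.20 did not pass the test (SE 0.59, 95% interval -1.12 to 1.52, limma BH adjusted p = 0.822). Its sign was not stable, with -0.22 without early 2, -0.15 with DV200 as a covariate and -0.017 with array weights. The SD among early tumours on the log2 scale was larger than that of 91.2% of tested genes.

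CD163, a scavenger receptor of macrophages, was among the 3 genes nearest to FCGR1A (0.40), after PDPN (0.37), which encodes podoplanin, and before COLEC12 (0.40), another scavenger receptor, against a median of 0.84 over all tested genes. CD163 had 250, 1262, 352, 133 and 424 normalized counts in early 1 to early 5 and 331 to 869 in late CCH. Early 2 was highest and early 4 lowest for both genes, and late 2 was the highest late sample for both. The difference of CD163 between the stages did not pass the test (log2 fold change -0.31, limma BH adjusted p = 0.679). Of the 10 tested genes of the macrophage and monocyte list, 0 were higher in early CCH and 3 were higher in late CCH past the BH threshold (CD68, a lysosomal protein, MSR1, a scavenger receptor, and C1QB, a complement component), and the list median was -0.85 on the log2 scale. Of all tested genes 27.3% passed as higher in late CCH. The genes of that list with the highest levels were C1QB (-2.14, limma BH adjusted p = 0.0239) and CSF1R, the receptor that macrophages need for growth (-0.42, 0.213). The list summed to 3369 to 11624 normalized counts in early and 8428 to 15598 in late CCH.

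LOC100856270, the inhibitory IgG receptor FCGR2B, was higher in late CCH. It had 73.0, 137, 67.9, 31.3 and 45.5 normalized counts in early 1 to early 5 and 186, 313, 212, 121 and 235 in late 1 to late 5. Only early 2 overlapped the late range, through late 4, and early 4 was below its background of 35.2. Its mean was 71.0 ± 40.8 in early and 213 ± 70.2 in late CCH, a log2 fold change of -1.68 (SE 0.39, 95% interval -2.55 to -0.81, limma BH adjusted p = 0.00936), or 3.21-fold. It missed the BY threshold (adjusted p = 0.0675), which it passed without early 2 (log2 fold change -1.96, BY adjusted p = 0.0246). The BH call held in all 10 fits without a sample (log2 fold changes of -1.96 to -1.44) and was lost with DV200 as a covariate (-1.30, limma BH adjusted p = 0.207) and among male dogs (-1.41, 0.0938). How well the probe tells this gene from closely related Fc gamma receptor genes was not given in the sources used here.

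The genes nearest to LOC100856270 were MAF (0.34), a transcription factor of macrophages and T cells, SIGIRR (0.35), an inhibitory receptor of the interleukin 1 family, and EGR1 (0.36), an early response transcription factor, against a median of 0.94 over all tested genes. Each was higher in late CCH (log2 fold change -1.65, -1.57 and -1.81, limma BH adjusted p = 0.00330, 0.00141 and 0.0105). Likeness was measured over both stages, so that this shared direction was largely built into the choice. Markers of T cells and most markers of B cells moved in the same direction, whereas CD22 and TNFRSF13C had the opposite sign (0.17 and 0.58). All 6 T cell genes and 6 of 9 B cell genes were higher in late CCH past the BH threshold, beside 27.3% of all tested genes. The T cell genes summed to 385 to 7229 in early and 9775 to 14096 normalized counts in late CCH. CD3E and CD2, the T cell genes with the highest levels, had log2 fold changes of -3.18 and -2.37 (limma BH adjusted p = 0.0318 and 0.0113). FCGR2B is known from B cells and from myeloid cells, and the part of either in the difference was not tested.

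The ratio of the activating to the inhibitory IgG receptor was higher in early CCH. The log2 ratio of FCGR1A to LOC100856270 was 1.58, 2.07, 0.87, 0.44 and 2.53 in early 1 to early 5 and -0.46, -0.17, -0.45, -0.07 and -0.79 in late 1 to late 5. Every early tumour lay above every late tumour. The mean difference was 1.88, a 3.69-fold change of the ratio (exact permutation over samples, two-sided p = 0.00794, BH adjusted over 3 ratios 0.0119, n = 5 per stage). No lower p is possible here, and the difference ranged from 1.62 to 2.15 when each sample was left out in turn. With values raised to the background floor the difference was 1.83. Most of the difference came from LOC100856270 (log2 fold change -1.68), whereas FCGR1A alone did not pass the test (0.20, limma BH adjusted p = 0.822). In early 4 FCGR1A was at 1.22 and LOC100856270 at 0.89 times background. The absolute value of such a ratio compares 2 probes and carries no meaning of its own.

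**Figure D2:**
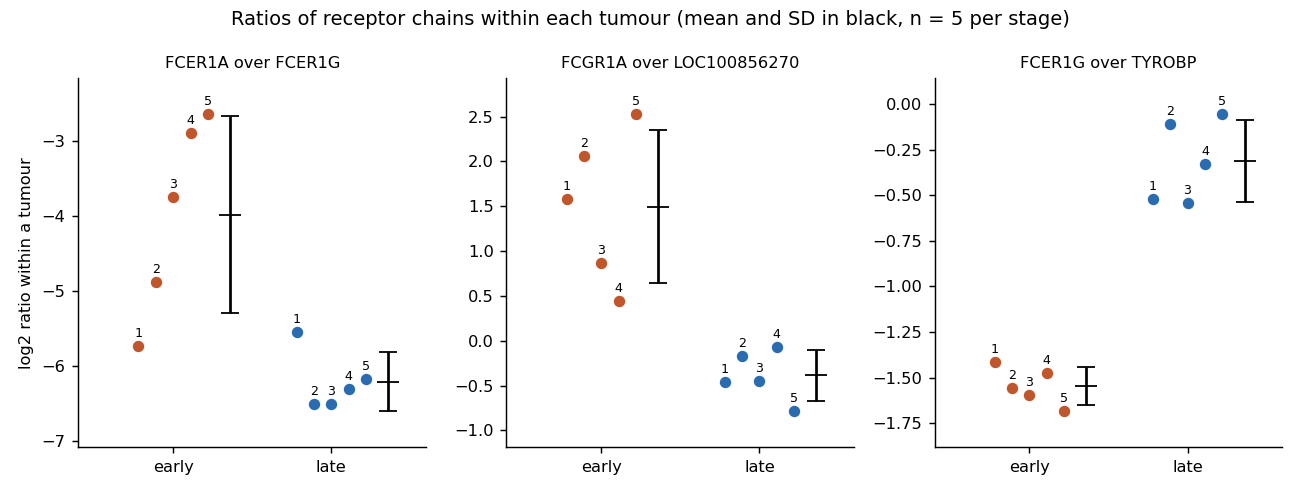
Log2 ratio of 2 genes within each tumour for FCER1A over FCER1G, FCGR1A over LOC100856270 and FCER1G over TYROBP, with early CCH on the left and late CCH on the right of each panel, replicate numbers above the points and mean and SD in black (n = 5 per stage). The stages do not overlap for the second and the third ratio, and early 1 falls into the late range for the first.

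FCAR, the receptor of IgA on neutrophils and monocytes, was low in both stages and did not pass the test. It had 56.1, 105, 73.4, 61.0 and 72.0 normalized counts in early 1 to early 5 and 58.3, 74.1, 49.7, 64.1 and 55.1 in late 1 to late 5, which is 1.73 to 3.05 times background. The stages overlapped in part, with early 2 above every late sample and late 3 and late 5 below every early sample. The log2 fold change was 0.26 (SE 0.21, 95% interval -0.21 to 0.73, limma BH adjusted p = 0.354). In recovered counts, before scaling, early samples had 37 to 62 and late samples 46 to 69 counts of FCAR. S100A8 and S100A12, calgranulins of neutrophils and the genes of the neutrophil list with the highest levels, did not pass the test (log2 fold change 1.24 and 1.01, limma BH adjusted p = 0.524 and 0.641), nor did any other of the 6 tested genes in that list. Genes nearest to FCAR were IL17RA (0.16), CSF3 (0.16) and LTBR (0.17), against a median of 0.50.

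FCRL2 was at background. Its values were 23.3, 40.7, 25.7, 26.4 and 36.0 normalized counts in early 1 to early 5 and 21.1, 24.3, 25.9, 22.3 and 19.4 in late 1 to late 5. They lay between 0.749 and 1.19 times the background of the sample, with 3 of 5 early and 4 of 5 late samples above it and 14 to 24 recovered counts in each. The log2 fold change of 0.39 (SE 0.19, limma BH adjusted p = 0.147) fell to 0.02 with values raised to the background floor. Background itself reached higher values in early than in late CCH after scaling, as given above, and under geometric mean scaling FCRL2 was past the threshold (0.76, limma BH adjusted p = 0.00939). Its nearest genes were LOC612539 (0.10), CSF3 (0.11) and MAPK11 (0.14), against a median of 0.51.

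The scaling of samples bears on the genes with small differences. When samples were scaled to the geometric mean of the tested genes instead of the housekeeping genes, the panel median moved from -0.18 to 0.21 on the log2 scale, and FCER1G (0.61), FCAR (0.65) and FCRL2 (0.76) joined FCER1A (2.83) as genes higher in early CCH past the BH threshold, with LOC100856270 (-1.29) still higher in late CCH. Under that scaling 45.3% of tested genes passed the threshold, and 25.4% of tested genes passed it as higher in early CCH. Under quantile normalization, where 42.6% of tested genes passed and 23.7% as higher in early CCH, FCER1G (0.45) and FCAR (0.71) passed as well but FCRL2 did not (0.31, limma BH adjusted p = 0.22). Relative to the panel median, FCER1A was higher by 2.62 and FCER1G by 0.39 and LOC100856270 was lower, at -1.51, under the deposited scaling. The direction of all 7 genes was the same under the deposited, the geometric mean and the quantile scaling.

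**Figure D3:**
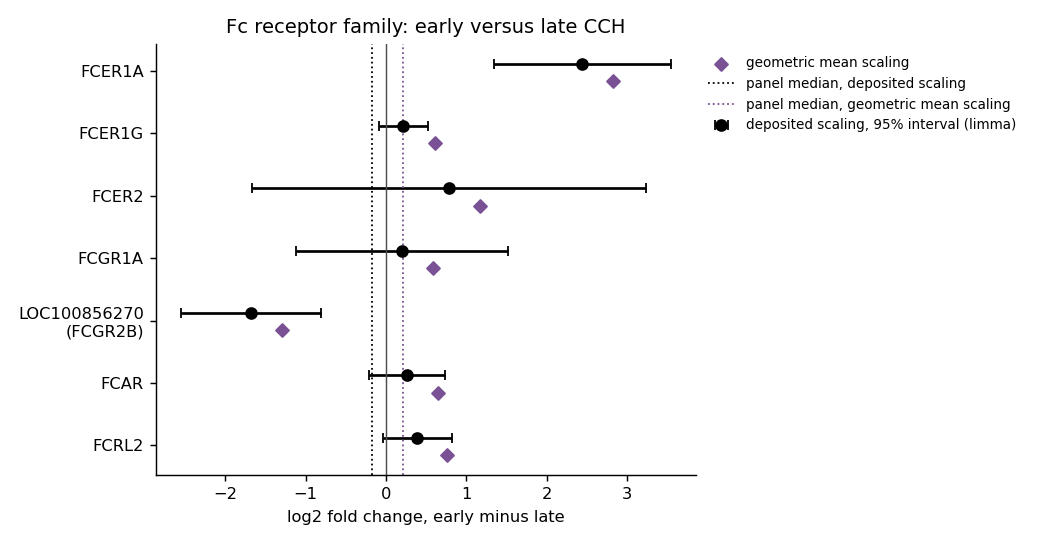
Log2 fold change of each Fc receptor gene, early minus late CCH, with its 95% interval from limma under the deposited scaling (black circles) and its value under geometric mean scaling (purple diamonds), with the panel median of each scaling as a dotted line. FCER1A lies to the right and LOC100856270 to the left of both medians, and the intervals of the other genes include 0.

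Of 28 genes in a signalling list 14 were on the panel and tested. Past the BH threshold 4 were higher in early CCH (TYROBP, PIK3CG, PIK3R1 and LYN), 3 were higher in late CCH (PLCG1, FYN and PIK3CD) and 7 did not pass. Over all tested genes 8.41% were higher in early and 27.3% in late CCH past this threshold. The median log2 fold change of the list was 0.20, beside -0.18 for all tested genes. Under geometric mean and under quantile scaling BTK, CARD9 and DOK1 also passed as higher in early CCH, where 25.4% and 23.7% of all tested genes did, and the signs of BLNK and PRKCD turned to positive. The inhibitory phosphatases PTPN6 and INPP5D were not analysed here.

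TYROBP, an adaptor with the same kind of activating motif as FCER1G, had 12339 ± 1179 normalized counts in early and 4515 ± 413 in late CCH. Its log2 fold change was 1.45 (SE 0.12, limma BY adjusted p = 0.00143), with no overlap of the stages. FCER1G did not follow it. The log2 ratio of FCER1G to TYROBP was -1.68 to -1.41 in early and -0.54 to -0.05 in late CCH, a difference of -1.23 or a 2.35-fold higher ratio in late CCH (exact permutation over samples, two-sided p = 0.00794, BH adjusted over 3 ratios 0.0119, n = 5 per stage). It ranged from -1.29 to -1.17 when each sample was left out in turn.

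PLCG1, a phospholipase of receptor signalling that T cells use, had the largest change of the list toward late CCH, from 212 ± 75.4 to 826 ± 114 normalized counts (log2 fold change -2.02, limma BY adjusted p = 0.00543). The kinase FYN (-1.31, limma BY adjusted p = 0.0238) and PIK3CD, a catalytic subunit of phosphoinositide 3-kinase in leukocytes (-1.23, 0.0102), were also higher in late CCH. PIK3CG, another catalytic subunit, was higher in early CCH (1.20, limma BY adjusted p = 0.00842). SYK, the kinase that binds the phosphorylated gamma chain, had 954 ± 196 in early and 1253 ± 190 normalized counts in late CCH and did not pass the test (log2 fold change -0.40, limma BH adjusted p = 0.103). The T cell genes named above moved in the direction of PLCG1, FYN and PIK3CD, and their part in these differences was not tested.

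**Figure D4:**
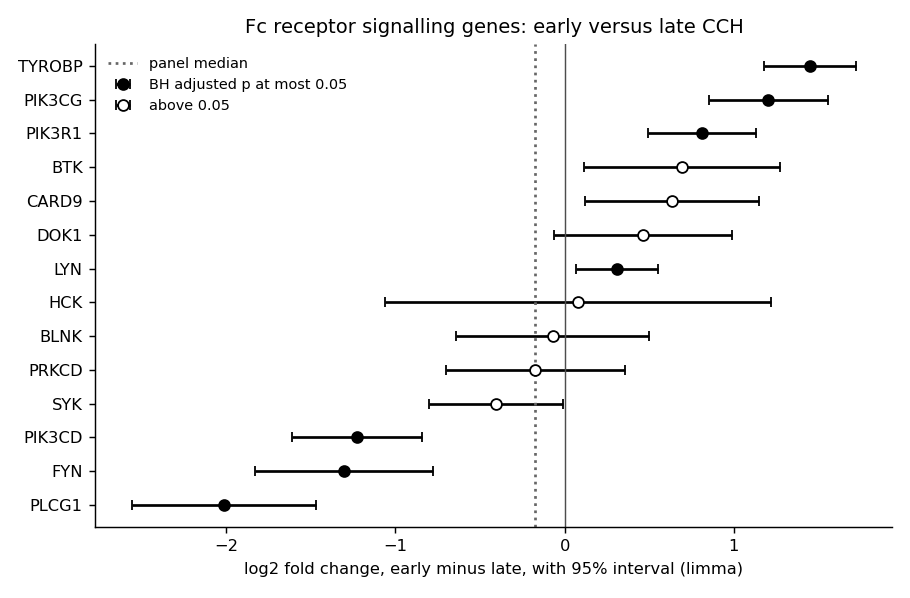
Log2 fold change, early minus late CCH, of the 14 tested genes in the Fc receptor signalling list with 95% intervals from limma, filled where the BH adjusted p was at most 0.05, and the panel median as a dotted line. TYROBP is at the top with 1.45 and PLCG1 at the bottom with -2.02.

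The list of immunoglobulin heavy chains and other ligands had 5 genes on the panel, of which CRP was never above background and was not tested. IGHM, the heavy chain of IgM, is on the list as an immunoglobulin and is not a known ligand of the 7 receptors. The heavy chain transcripts IGHG and IGHM were higher in late CCH, with 317 ± 290 and 367 ± 342 normalized counts in early against 2242 ± 1637 and 3088 ± 2070 in late CCH. Their log2 fold changes were -3.06 and -3.41 (limma BH adjusted p = 0.00879 and 0.00712). With DV200 as a covariate 0 genes of this list passed the BH threshold. CR2, a complement receptor of B cells that can bind FCER2, was also higher in late CCH (-1.89, limma BH adjusted p = 0.0357), a call that was lost under geometric mean and quantile scaling. LGALS3, a lectin that can bind IgE, did not pass the test (0.67, limma BH adjusted p = 0.0984) but passed as higher in early CCH under both of these scalings. IgE heavy chain transcripts were not analysed here. Of the plasma cell list, 1 of 3 tested genes passed as higher in late CCH, beside 27.3% of all tested genes. It was PRDM1, a transcription factor of plasma cells and T cells, at -1.88 (limma BH adjusted p = 0.00712), whereas IRF4 did not pass (-0.46, 0.163).

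The tested genes of the eosinophil and keratinocyte lists did not pass the test. CCR3, the 1 tested gene of the eosinophil list, had a log2 fold change of 0.74 (limma BH adjusted p = 0.391). KRT14 and TP63, the tested keratinocyte genes, had 0.43 and 0.56 (limma BH adjusted p = 0.789 and 0.154).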

How the data were processed

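Total RNA of 10 CCH tumours was hybridised by the authors to the nCounter Canine IO Panel, which counts barcoded probes without amplification. The authors normalized the counts in nSolver 4.0 to positive controls and then to housekeeping genes. The deposited values are a linear normalized signal, here normalized counts, for 800 genes beside 14 unscaled control probes. In every sample at least 99.4% of gene values were a whole number of steps (tolerance 0.0051), 1 step being what 1 barcode count is worth. Division by the step gave recovered counts, used for depth, background and counting error and printed for some genes, but not tested between the stages. The labels and the study's sample sheet differ in the DV200 of late 5, and the labels' value was used.

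Early was compared with late CCH as baseline with limma 3.58.1 in R 4.3.3 (lmFit, eBayes with trend) on log2(normalized count + 1), fitted over all 761 genes with a mean of at least 20. On this scale the fold changes of low genes are understated. The BH and BY adjustments cover all tested genes, and the BY call also needs a 2-fold change. Tumours of a stage differ in labelled breed, age or sex, and their number, 5 per stage, limits the precision. Ratios were compared by exact permutation over samples in scipy 1.17.1. The scripts were tested on simulated data. Figures were drawn with matplotlib 3.10.9.

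Named are all family genes, the 5 signalling genes of largest change with SYK and TYROBP, all tested genes of the immunoglobulin and ligand list, the 2 genes of highest level per marker list, KIT, and the 3 other genes nearest to each family gene. CPA3, HDC, CD68, MSR1, PIK3R1, LYN, BTK, CARD9, DOK1, BLNK, PRKCD, EPCAM, CD207 and CD1C were also named, after their values were seen. So were CD1A6, CDH1, XCR1, ITGAX, CD83 and CCR7. Likeness across genes carries no test. Members and lists were chosen with earlier results of these data known. Alternatives covered pseudocount, filter, scaling, variance model, DV200, replicate number, extraction batch, male dogs, a background floor, the BY adjustment and each sample left out. Probe sequences and coordinates were not used here.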

Additional observations from a re-analysis of the deposited data

Results flagged for a closer look

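Among named genes and ratios, 112 groups of 5 samples were checked for a sample far from the others, by the gap to the nearest sample over the range of the group. In 13 groups (11.6%) the gap exceeded the critical value, where about 5% would do so among independent groups of normally distributed values. The flagged counts were on a linear scale, all flagged samples were high, and the groups share the same tumours. The 11.6% therefore does not measure an excess over chance. Of the Fc receptor genes, FCER2 in early 5 (8608 normalized counts, the rest of its stage 75.8 to 475) had a gap over range of 0.953, and FCGR1A in late 2 (279 against 115 to 154) had 0.760.

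The other high samples were late 2 for S100A8 (15455 against 137 to 2111, 0.871), S100A12 (13173 against 116 to 1728, 0.876), CD163 (869 against 331 to 484, 0.715) and NCF4 (315 against 262 to 271, 0.823). Late 3 was high for CR2 (898 against 86.4 to 318, 0.715), TNFRSF13C (2497 against 416 to 827, 0.802), LY86 (941 against 224 to 407, 0.744) and PTGDR2 (35.6 against 11.9 to 14.9, 0.874). Early 2 was high for CCR3 (181 against 12.7 to 53.1, 0.761) and CD163 (1262 against 133 to 424, 0.742). Early 1 was high for TNFRSF13C (1713 against 921 to 1148, 0.713).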

How the results depend on the processing

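The number of Fc receptor genes past the BH threshold was 2 in the reported fit and in 8 of 13 other settings, and also in each of the 10 fits that left out a sample. It was 5 with geometric mean scaling, 4 with quantile normalization (where 324 of all tested genes passed), 0 with DV200 as a covariate, 0 among male dogs only and 1 with BY in place of BH. Over all tested genes limma called 45 past BH in the DV200 fit, 133 in the male fit and 272 in the reported fit, and 197, 278 and 345 had an unadjusted p under 0.05. DV200 follows stage, and fewer samples enter the male fit. With each RNA extraction batch as a random block, LOC100856270 passed BY (adjusted p = 0.0264), but the estimated within-batch correlation was negative (-0.138) and calls over all tested genes rose to 321 past BH and 118 past BY and 2-fold. It also passed BY with array weights (0.0416). The log2 fold change of FCER2 was -1.44 with DV200 and ranged from -0.31 to 1.39 without single samples. That of FCGR1A was -0.15 with DV200, -0.017 with array weights and -0.22 to 0.71 without single samples. FCRL2 gave no value with a mean of at least 50. The list of immunoglobulin heavy chains and ligands had 3 genes past BH in the reported fit and 0 with DV200, and 2 to 3 without single samples. The signalling list kept within 6 to 10 in every setting tried.

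The ratios kept their sign in every setting tried. Among male dogs (3 early, 4 late), where the smallest raw p is 0.0571, the differences were 1.63 for FCER1A to FCER1G, 1.80 for FCGR1A to LOC100856270 and -1.12 for FCER1G to TYROBP, with exact permutation adjusted p of 0.114, 0.0857 and 0.0857.

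The replicate numbers of the labels name dogs of different breeds, and samples of the same number did not deviate together (correlations of -0.20 to 0.16 across genes in 5 pairs). As a replicate block, the number left 228 genes past BH and 1 past BY and 2-fold, against 85 in the reported fit, and FCER1A had a BY adjusted p of 0.134. It left 2 Fc receptor genes past BH. Exact sign flips within such pairs gave ratio differences of 2.23, 1.88 and -1.23 with adjusted p of 0.125, 0.0938 and 0.0938, where no raw p under 0.0625 is possible. Counting error at these depths limits FCRL2 most, with a CV of up to 26.7% from counts alone.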
